A study of Mus musculus with 21 samples.

Results

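The mRNAs of 10 genes at the core of the mouse pluripotency network were followed through 8 groups of embryonic stem cell (ESC) RNA-seq libraries. The members were chosen by gene symbol, and all 10 were found among the 40838 genes of each count table: Pou5f1, Sox2, Sall4, Zfp281, Utf1, Foxd3, Lin28a, Lin28b, Tcf3 and Tcf7l1. The study asks how mouse ESCs depend on pyruvate supplied in the medium. For all 21 libraries the cells spent 48 h in medium holding 0.2 mM pyruvate, with dialyzed serum at 10%. The medium was either SL, read here as serum with leukemia inhibitory factor, or SL2i, the same with inhibitors of GSK3B and MEK. The first count table held 6 libraries in SL, 3 from cells carrying an empty vector and 3 from cells expressing LbNOX, a water-forming NADH oxidase of bacterial origin that turns NADH into NAD+. The second held 15 libraries of 3 lines: a control line named chr8A and 2 lines named SLC16A1 clone 1 and SLC16A1 clone 2, after the plasma membrane transporter of lactate, pyruvate and other monocarboxylates. Each of these 3 lines had 3 libraries in SL and 2 in SL2i. Each SLC16A1 line is a single clone, so a difference from chr8A cannot be told apart from a difference between clones of any kind. The sources used here do not say what was done to make them. No label ties the libraries of a group to separate cultures, so every p-value is set by library-to-library spread, part or all of which may be technical.

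OCT4, the product of Pou5f1, and SOX2 bind DNA as partners at composite sites and hold ESCs in the undifferentiated state, with the zinc finger proteins SALL4 and ZFP281 acting on many of the same genes. UTF1 is a chromatin-bound factor that is lost early in differentiation, and FOXD3 is a forkhead repressor needed to maintain ESCs. LIN28A and LIN28B are RNA-binding proteins that block the maturation of let-7 microRNAs, and let-7 in turn represses both Lin28 mRNAs through their 3' UTRs. TCF7L1 is the repressor at the end of the Wnt pathway that inhibition of GSK3 counteracts. In the ESC literature its protein is often called TCF3, but the gene with the symbol Tcf3 is a different one, which encodes the E proteins E12 and E47, partners of basic helix-loop-helix factors.

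The sequences shown first are those of the let-7 loop, since Lin28a and Lin28b changed most among the members between the media. The mature microRNAs, from RefSeq (GRCm38.p6), carry their seed (bases 2 to 8) in capitals, and 11 named mouse microRNAs from 13 loci share the seed GAGGUAG. Those of let-7a, let-7g and miR-98 are shown to mark how the family differs outside the seed.
mmu-let-7a-5p: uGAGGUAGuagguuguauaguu
mmu-let-7g-5p: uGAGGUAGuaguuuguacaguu
mmu-miR-98-5p: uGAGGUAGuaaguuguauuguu
In the 3' UTRs of the members (longest 3' UTR of each gene in GENCODE vM21), the 7 letters that pair with the seed, CTACCTC, are in capitals below, with 14 bases before and 1 base after. The letters were searched on the transcribed strand only. Lin28a held 2 such matches, Lin28b 4, Sall4 1 and Tcf7l1 1, and the other 6 members held none.
Lin28a match 1: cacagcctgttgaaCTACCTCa
Lin28a match 2: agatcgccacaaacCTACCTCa
Lin28b match 1: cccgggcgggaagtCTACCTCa
Lin28b match 2: atacttgttagtaaCTACCTCt
Lin28b match 3: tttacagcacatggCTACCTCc
Lin28b match 4: aatgatggcaccgaCTACCTCt
Sall4 match 1: gggctttaatttatCTACCTCa
Tcf7l1 match 1: cgggagatatctctCTACCTCt
Of 21028 genes with a 3' UTR, 9.02% held at least 1 match. Among UTRs of a length like that of Lin28a the share was 14.7%, and for Lin28b, with a 3' UTR of 4445 bases, it was 24.4%. A match is a description of the letters, and let-7 itself was not measured in these polyadenylated RNA libraries.

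The promoters shown are those of the 4 members that changed at least 2-fold between the media in all 3 lines. RefSeq gives 250 bases before and 50 after the start site (GRCm38.p6), and 9 of the 10 members matched an entry, all but Sall4. Pou5f1 has 2 entries, so the members have 10 windows. Each of 9 motifs was searched on both strands, and the matches are in capitals.
Lin28a, chr4:134018767-134019066, minus strand: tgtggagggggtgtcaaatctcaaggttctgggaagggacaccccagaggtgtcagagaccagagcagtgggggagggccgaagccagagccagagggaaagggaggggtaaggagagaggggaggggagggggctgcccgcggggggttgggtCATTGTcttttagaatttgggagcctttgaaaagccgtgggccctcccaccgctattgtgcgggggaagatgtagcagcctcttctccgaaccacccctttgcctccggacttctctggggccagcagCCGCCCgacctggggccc
Lin28b, chr10:45470152-45470451, minus strand: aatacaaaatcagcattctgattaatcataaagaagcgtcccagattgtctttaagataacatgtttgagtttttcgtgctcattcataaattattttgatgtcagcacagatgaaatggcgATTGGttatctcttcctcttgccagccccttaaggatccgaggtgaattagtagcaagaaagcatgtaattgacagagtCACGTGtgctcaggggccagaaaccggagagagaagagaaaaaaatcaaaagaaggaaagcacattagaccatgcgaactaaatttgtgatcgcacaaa
Utf1, chr7:139943606-139943905, plus strand: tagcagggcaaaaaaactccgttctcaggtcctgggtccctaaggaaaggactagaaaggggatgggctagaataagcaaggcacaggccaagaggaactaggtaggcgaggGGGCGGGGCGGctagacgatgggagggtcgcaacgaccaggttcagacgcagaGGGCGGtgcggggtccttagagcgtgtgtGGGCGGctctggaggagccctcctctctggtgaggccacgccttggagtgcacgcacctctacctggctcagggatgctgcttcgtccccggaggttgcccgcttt
Foxd3, chr4:99656049-99656348, plus strand: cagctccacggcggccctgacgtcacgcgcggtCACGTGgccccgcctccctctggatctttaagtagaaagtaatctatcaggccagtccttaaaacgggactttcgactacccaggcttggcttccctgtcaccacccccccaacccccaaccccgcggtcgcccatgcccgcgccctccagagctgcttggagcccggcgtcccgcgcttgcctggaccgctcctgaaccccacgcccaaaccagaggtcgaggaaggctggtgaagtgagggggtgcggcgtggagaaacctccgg
The SOX motif CATTGT lay in the Lin28a window and in the downstream of the 2 Pou5f1 windows, and 12.6% of all 32851 promoters of this length held it. The E-box CACGTG lay in the Lin28b and Foxd3 windows, against 7.15% of all promoters, and the GC box GGGCGG in 7 of the 10 member windows (for Pou5f1 in the upstream one), against 35.7%. Matches to the GC box in the Utf1 window numbered 4, of which 2 overlap by 1 base. The CCAAT box (CCAAT) lay in windows of 4 members, among them that of Lin28b and both of Pou5f1, against 37.4%, and the ETS motif CCGGAA in those of Sox2 and Tcf3, against 14.9%. CAGCTG was found only in the downstream Pou5f1 window among the members, against 16.3%. No member window held the octamer ATGCAAAT (1.74% of all promoters), the TCF-LEF motif CTTTGAT (3.73%) or CAGGTG (20.2%), which says only that these letters are not in these windows. Base composition set the Lin28 promoters apart from each other: the Lin28a window was 63.3% G and C with 10 CpG dinucleotides, and the Lin28b window 39% with 8, against medians of 52.7% and 7 over all promoters.

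Library totals ranged from 15802072 to 30145771 assigned reads in SL and from 9784408 to 10908368 in SL2i in the clone table, and from 16521594 to 30008895 in the LbNOX table. In the clone table the totals thus separate by medium, as do the TMM scaling factors (1.016 to 1.037 in SL, 0.956 to 0.977 in SL2i). A change between the media cannot be told apart from any other difference between these sets of libraries. Slc16a1 itself, in CPM (counts relative to library size, with libraries scaled by TMM, the trimmed mean of M-values), was 195, 201 and 198 in SL chr8A, 168, 182 and 162 in clone 1 and 92.8, 91.4 and 96.5 in clone 2. In SL2i it was 157 and 167 in chr8A, 122 and 123 in clone 1 and 78.7 and 78.5 in clone 2, so both clones were below chr8A in both media but kept the transcript. Of 10 ESC markers none was at 0 in any group, and their summed CPM was 4242 to 4838 in SL and 6365 to 7326 in SL2i (Pou5f1, Sox2 and Utf1 are among them). Markers of 3 other cell types fell in sum with the change of medium: in chr8A, 11 trophoblast markers went from 812 to 837 CPM in SL to 78.0 to 86.9 in SL2i, 10 neural progenitor markers from 358 to 366 to 83.2 to 89.7, and 11 fibroblast markers from 116 to 119 to 11.8 to 11.9, with Col3a1, Postn, Dcn, Acta2 and Fap at 0 in SL2i. The 12 primitive endoderm markers summed to 619 to 640 CPM in SL chr8A and 690 to 698 in SL2i chr8A, with Foxa2 and Afp at 0 in the latter. The 9 mesoderm markers summed to 14.5 to 15.2 and 13.1 to 17.6 CPM, with T at 0 in every group. In SL chr8A the mean was under 1 CPM for 6 primitive endoderm, 5 fibroblast, 5 neural progenitor, 4 mesoderm and 2 trophoblast markers. In SL2i chr8A these numbers were 6, 7, 6, 6 and 4, so the sums rest on the remaining genes of each list. Whether cells of these types were present, and their part in the changes of the members, was not tested. In bulk RNA fewer cells of a type and less RNA per cell cannot be told apart.

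Pou5f1 was the most abundant member in every group. On a per-length scale (TPM, in which counts are divided by the gene lengths deposited with them and each library has the same sum), its level in SL chr8A was 1945 ± 109 (SD, n = 3). Utf1 followed at 807 ± 31, Sox2 at 529 ± 35 and Lin28a at 372 ± 16.7 TPM (n = 3 each). The middle of the order was Sall4 at 145 ± 2.4, Tcf3 at 125 ± 2.9 and Zfp281 at 105 ± 2.1 TPM. Tcf7l1 at 36.5 ± 1.9, Lin28b at 19.0 ± 1.1 and Foxd3 at 13.8 ± 1.3 TPM were lowest, and no 2 neighbours in this order overlapped between libraries. In SL2i chr8A the order changed: Pou5f1 stayed first at 2119 ± 16 TPM (n = 2) and Sox2 second at 550 ± 35, while Utf1 dropped to the third place at 172 ± 23. Lin28a moved from the fourth place to the seventh, at 53.4 ± 3.8 TPM, and Lin28b took the last, at 1.85 ± 0.54, below Foxd3 at 39.6 ± 3.8 TPM. The TPM of Tcf7l1 depends on a deposited gene length of 10368 bases, while its GENCODE transcripts together hold 3946 different stretches of 30 bases. With a shorter length its TPM would be higher, and its place in the order could be too. The deposited lengths of Lin28a (4970 bases, 3959 stretches) and Lin28b (11415 bases, 9032 stretches) are also the larger figures. The Pou5f1 to Sox2 ratio in TPM lay between 3.59 and 4.67 over the libraries of the clone table and differed by line in SL. There it was 3.59 to 3.75 in chr8A, 4.38 to 4.62 in clone 1 and 4.37 to 4.67 in clone 2. In SL2i the lines overlapped, at 3.67 to 4.06, 3.90 to 4.19 and 3.93 to 4.07 in the same order.

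**Figure D1:**
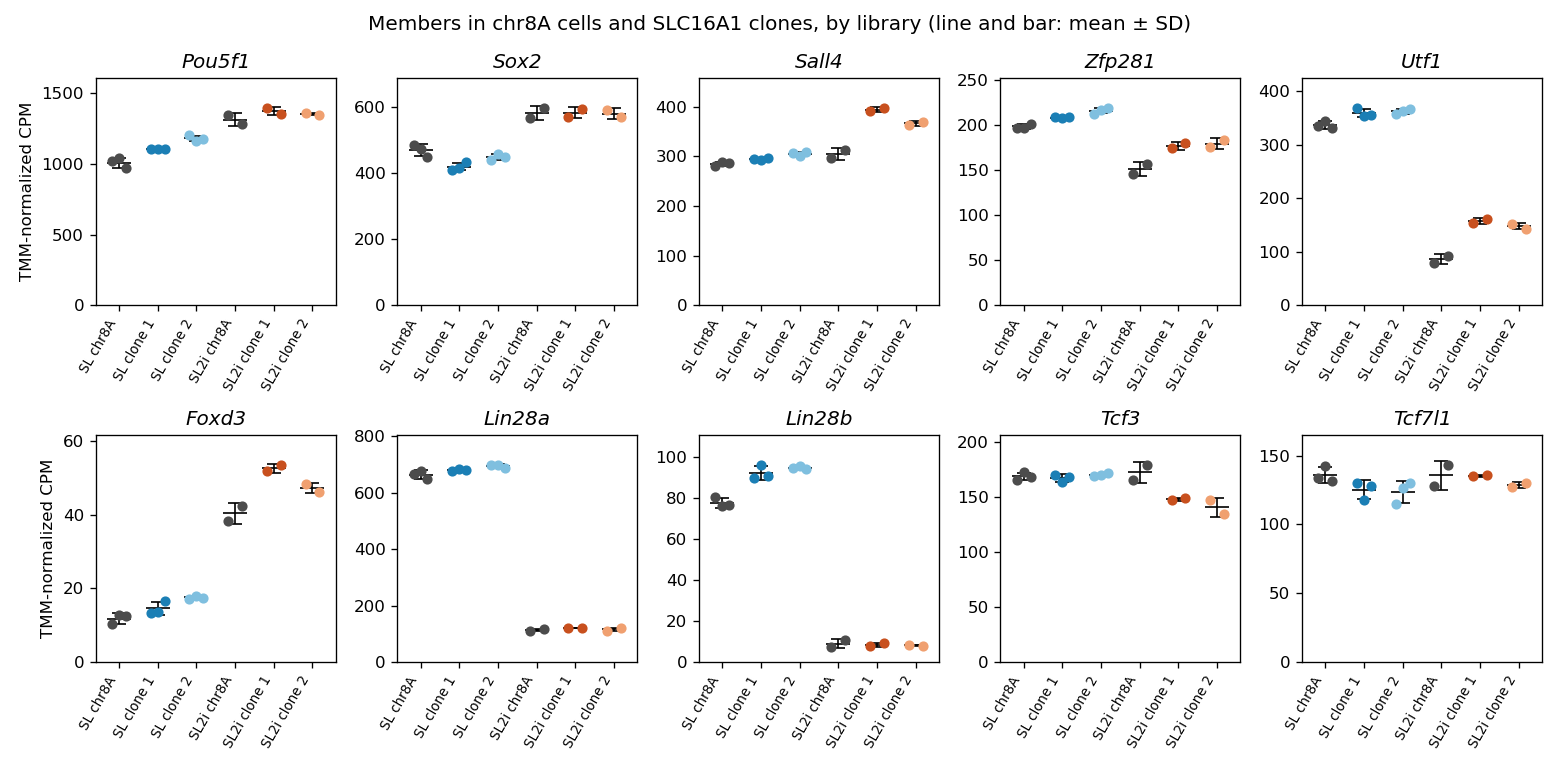
TMM-normalized CPM (vertical axes, linear from 0) of each member in every library of the chr8A and SLC16A1 clone table, by group on the horizontal axis; points are libraries, the line and bar are the mean and SD. Lin28a, Lin28b and Utf1 sit far lower and Foxd3 far higher in the SL2i groups, while the other members shift by less.

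Both Lin28 genes and Utf1 were lower in SL2i than in SL, Foxd3 was higher, and Lin28b changed most among the members in every line, with small shifts in Pou5f1, Sox2, Sall4 and Zfp281. In chr8A cells 4 members rose and 4 fell (edgeR's quasi-likelihood test, Benjamini-Hochberg adjustment over 17178 genes, adjusted p under 0.05). Of all genes 36.1% rose and 36.8% fell in that comparison, 72.8% in all, so 8 of 10 members called is a share near the background. The media did not overlap for 8 members in chr8A, 10 in clone 1 and 9 in clone 2, against 80.8%, 81.3% and 81.5% of all genes. In clone 1, 5 members rose and 5 fell, against 35.9% and 37.1% of all genes. In clone 2, 4 rose and 5 fell, against 35.8% and 37.2%. Changes of at least 2-fold were rarer: 3 members fell by that much in each line, against 20% of all genes in chr8A, 19.9% in clone 1 and 19.5% in clone 2. The only member that rose by as much in each line was Foxd3, against 14.4%, 14.9% and 14.9%.

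Lin28a was at 667, 678 and 648 CPM in SL chr8A and at 110 and 118 in SL2i chr8A. In clone 1 it was at 679, 685 and 682 CPM in SL and 122 and 122 in SL2i, and in clone 2 at 699, 699 and 687 against 112 and 120. Every SL2i library was far below every SL library. The fall in chr8A was 5.83-fold, a log2 change of -2.54 ± 0.04 (SE, n = 3 and 2, edgeR adjusted p = 1.51e-81). The log2 change was -2.48 ± 0.04 in clone 1 and -2.58 ± 0.04 in clone 2.

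Lin28b, the paralog with the same binding domains, was at 80.5, 76.2 and 76.5 CPM in SL chr8A and at 7.34 and 10.8 in SL2i chr8A. It was at 90.1, 96.3 and 91.1 CPM in SL clone 1 against 7.71 and 9.17 in SL2i, and at 94.8, 95.7 and 94.2 in SL clone 2 against 8.22 and 8.07. The SL2i values rest on 73 to 109 reads per library, so they are the least precise of the members. The fall was 8.6-fold in chr8A (log2 -3.10 ± 0.09, SE, n = 3 and 2, edgeR adjusted p = 2.46e-56), 10.9-fold in clone 1 (-3.45 ± 0.09) and 11.6-fold in clone 2 (-3.54 ± 0.09). Per length, Lin28a exceeded Lin28b in every library. Its TPM was 19.0 to 20.5 times that of Lin28b in SL chr8A and 25.1 to 34.5 times in SL2i chr8A, ranges that do not overlap. The Lin28a to Lin28b ratio in the clones was 16.3 to 17.3 and 16.7 to 16.9 in SL and 30.5 to 36.3 and 31.3 to 34.2 in SL2i.

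Utf1 was at 335, 345 and 330 CPM in SL chr8A and at 79.0 and 92.2 in SL2i chr8A, a 3.93-fold fall (log2 -1.98 ± 0.04, SE, n = 3 and 2, edgeR adjusted p = 2.97e-65). In clone 1 the values were 368, 354 and 356 CPM in SL and 153 and 161 in SL2i, and in clone 2 357, 363 and 367 against 151 and 143. The groups were well separated in each line, and the falls were smaller in the clones, 2.29-fold in clone 1 and 2.47-fold in clone 2. Foxd3 went the other way, from 10.2, 12.8 and 12.4 CPM in SL chr8A to 38.4 and 42.3 in SL2i chr8A, a 3.4-fold rise (log2 1.77 ± 0.09, SE, n = 3 and 2, edgeR adjusted p = 1.8e-35). It rose from 13.4, 13.7 and 16.6 to 51.7 and 53.4 CPM in clone 1, and from 17.2, 17.9 and 17.4 to 48.2 and 46.2 in clone 2. No SL library reached the lowest SL2i library for this gene, and its folds in the clones were 3.61 and 2.69.

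Pou5f1 was at 1018, 1039 and 969 CPM in SL chr8A and at 1345 and 1281 in SL2i chr8A, a 1.3-fold rise (log2 0.38 ± 0.03, SE, n = 3 and 2, edgeR adjusted p = 8.52e-21). In clone 1 it was at 1107, 1109 and 1107 against 1397 and 1353 CPM, and in clone 2 at 1202, 1164 and 1175 against 1360 and 1350. Sox2 was at 485, 473 and 449 CPM in SL chr8A and at 567 and 596 in SL2i chr8A (log2 0.31 ± 0.03, SE, n = 3 and 2, edgeR adjusted p = 4.58e-15), with log2 changes of 0.47 in clone 1 and 0.37 in clone 2. In CPM the media did not overlap for either gene in any line, and 64% of all genes changed more than Pou5f1 in chr8A. Zfp281 fell from 197, 197 and 201 CPM to 146 and 156 in chr8A (log2 -0.39 ± 0.04), by less in clone 1 (-0.23) and clone 2 (-0.27). Sall4 was at 281, 288 and 288 CPM in SL chr8A and at 296 and 314 in SL2i chr8A, a log2 change of 0.09 ± 0.03 (SE, n = 3 and 2, edgeR adjusted p = 0.00764). This Sall4 call in chr8A was lost without SL chr8A replicate 1 (log2 0.07) or SL2i chr8A replicate 2 (log2 0.03) and without the filter on low counts (log2 0.03), and with library totals as the only scaling the change was -0.01. On the TPM scale, which has no TMM scaling, Sall4 was at 145 in SL chr8A and 130 in SL2i chr8A, so its direction in this line depends on the scale. In TPM Pou5f1 also showed no rise in clone 2 (2250 to 2352 in SL, 2238 to 2322 in SL2i), and Sox2 overlapped between the media in chr8A (493 to 563 and 525 to 574). In the clones Sall4 rose from 295, 292 and 297 to 391 and 398 CPM (log2 0.42 ± 0.03) and from 306, 301 and 308 to 363 and 370 CPM (0.27 ± 0.03), and both calls held in every setting tried. The rises of Sall4 were smaller in TPM, from a mean of 150 to 176 in clone 1 and from 156 to 163 in clone 2.

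Neither Tcf3 nor Tcf7l1 passed the test in chr8A. Tcf3 was at 166, 172 and 169 CPM in SL and 166 and 179 in SL2i, a log2 difference of 0.03 ± 0.04, and Tcf7l1 at 134, 143 and 131 against 128 and 143, a difference of -0.00 ± 0.05 (SE, n = 3 and 2). In CPM their libraries overlapped between the media, but in TPM both were lower in SL2i chr8A without overlap, Tcf3 at 121 to 127 against 100 to 113 and Tcf7l1 at 34.4 to 38.1 against 28.2 to 32.8. With library totals as the only scaling, the Tcf7l1 difference in chr8A was -0.11 and passed (edgeR adjusted p = 0.0323). In clone 1 Tcf3 fell from 170, 164 and 169 to 147 and 149 CPM (log2 -0.18 ± 0.04, edgeR adjusted p = 6.15e-05) and in clone 2 from 169, 170 and 172 to 147 and 135 (-0.27 ± 0.04, edgeR adjusted p = 2.15e-09). Tcf7l1 passed by a small margin in clone 1, with a log2 change of 0.11 ± 0.05 (edgeR adjusted p = 0.0435). That call was lost without either SL2i clone 1 library (0.11 and 0.10), without SL clone 1 replicate 2 (0.06) and without SL clone 1 replicate 3 (0.12). It was also lost with RLE size factors, another scaling (0.10), with library totals only (0.04), without the filter on low counts (0.05) and with DESeq2 (0.10), and in TPM the mean was lower in SL2i (31.9) than in SL (33.5). In clone 2 the difference was 0.05 ± 0.05.

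**Figure D2:**
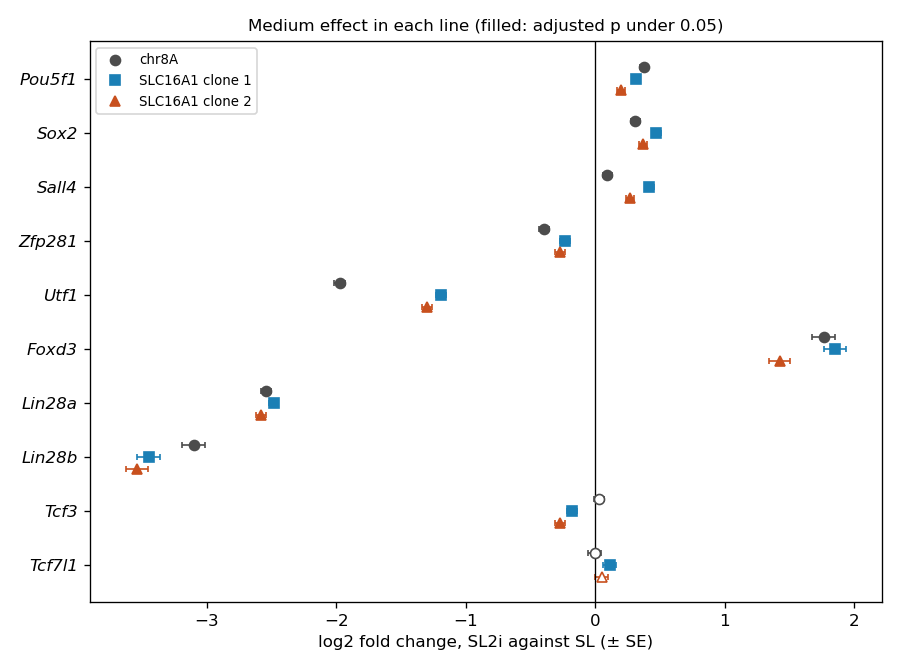
Log2 fold change of SL2i against SL (horizontal axis) for each member (vertical axis) in chr8A (circles), SLC16A1 clone 1 (squares) and clone 2 (triangles); bars are the SE, filled marks have an adjusted p under 0.05. Lin28b lies at -3.10 to -3.54 and Foxd3 at 1.43 to 1.85, and Utf1 is further from 0 in chr8A than in either clone.

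Genes that work with the members were followed in chr8A cells, in lists grouped by function (median of all genes 0.00). The lists were chosen with earlier results of these data known, so their counts are a description and not a test. The counts in each list stand against 36.1% of all genes higher and 36.8% lower, so with 72.8% called in all a list in which most genes changed is near the background. Of 18 targets of OCT4 and SOX2, 13 rose and 5 fell, with a median log2 change of 1.01. Nanog, the homeobox factor of naive pluripotency, rose by 2.14 ± 0.03, Esrrb, an orphan nuclear receptor of the same network, by 1.58 ± 0.03, and the Nodal antagonist Lefty1 fell by 2.99 on the log2 scale. In the list of 16 cofactors of OCT4 and SOX2, 9 rose and 6 fell (median 0.16), among them the histone methylation subunit Wdr5, up by 1.11 ± 0.03, and the remodelling subunit Arid1a, down to -0.58 ± 0.03. Of 12 genes whose proteins act on let-7 maturation, 5 rose and 5 fell (median 0.07). Dicer1, which encodes the nuclease of the last step, changed by -0.60 ± 0.04. Known let-7 targets numbered 20, of which 6 rose and 13 fell (median -0.27). They did not move together, since the insulin-like growth factor mRNA-binding protein gene Igf2bp2 rose by 1.79 ± 0.04 and Hmga2, an architectural chromatin protein, by 2.12 ± 0.05, while Myc changed by -2.75 ± 0.09 and Mycn by -1.58 ± 0.04. Neither Myc nor Mycn held a CTACCTC match in its longest 3' UTR, whereas Hmga2 held 4 and Igf2bp2 held 1.

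Partners of TCF7L1 in the Wnt pathway gave 3 higher and 7 lower of 14 (median -0.16), with the corepressor genes Ctbp2 at -0.75 ± 0.03 and Tle4 at -0.65 ± 0.04 and Tle3 at 0.60 ± 0.04. The 6 partners and relatives of the E proteins gave 2 higher and 4 lower (median -0.77). Id1 and Id2, whose products sequester E proteins, changed by -3.25 ± 0.13 and -3.15 ± 0.09, and Id4 by 2.08 ± 0.15. Paralogs of SALL4, SOX2, OCT4, FOXD3 and ZFP281 spread more widely than the members themselves: 9 of 18 rose and 8 fell (median 0.32). Sall3 rose by 4.13 ± 0.12, whereas Pou3f1, the POU factor of the epiblast and neural lineage, changed by -5.54 ± 0.11, Sox4 by -4.30 ± 0.11 and Sox11 by -3.10 ± 0.07. Foxd2 and Foxd4 had too few reads to be tested. Of 14 subunits of NuRD, the deacetylase complex that SALL4 recruits, 7 rose and 6 fell (median 0.07), and Mta1 changed by -1.15 ± 0.05 while Mta2 changed by 0.65 ± 0.04. Some of these genes share much sequence with other genes, so their counts are less certain: 26.3% of the 30-base words of Lefty1, 54.8% of Sox4, 11.1% of Nanog, 8.27% of Pou3f1 and 5.54% of Hmga2 also occur elsewhere in the GENCODE transcripts.

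**Figure D3:**
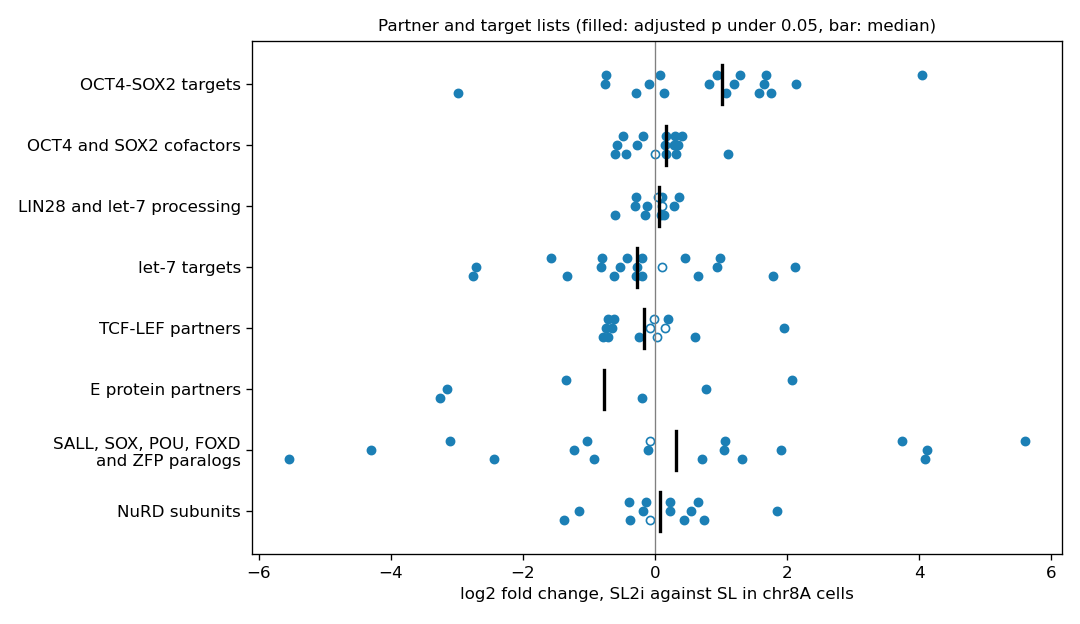
Log2 fold change of SL2i against SL in chr8A cells (horizontal axis) for the tested genes of 8 lists of partners, targets and paralogs (vertical axis); points are genes, filled where the adjusted p is under 0.05, and the bar is the list's median. The OCT4 and SOX2 targets have a median of 1.01, while the let-7 targets lie on both sides of 0 around -0.27.

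In SL the SLC16A1 clones differed from chr8A in several members by small amounts, the largest in Foxd3 and Lin28b. The clone comparisons within a medium share their chr8A libraries, so they are not independent of each other. Clone 1 had 4 members higher and 2 lower, against 8.83% and 7.77% of all genes (16.6% in all, by the same edgeR test). Clone 2 had 6 higher and 1 lower, against 14.3% and 12.6% (26.9% in all). Libraries did not overlap with those of chr8A for 9 members in clone 1 and 8 in clone 2, against 31.7% and 38.7% of all genes. The direction of the background depends on the setting. With library totals only, 1198 genes were higher and 1591 lower in clone 1, where the main analysis had 1516 and 1334. In clone 2 they were 1974 and 2449, where it had 2452 and 2166. Without SL chr8A replicate 3 the split was 1005 and 1108 in clone 1 and 1735 and 1958 in clone 2. In clone 2 it was 2274 and 2312 with a filter of 1 CPM in 3 libraries and 1782 and 1887 without SL clone 2 replicate 2. With 10 members the member counts are above the background share, and nothing is read from them for the members as a set. Neural progenitor markers summed to 358 to 366 CPM in SL chr8A, 427 to 430 in clone 1 and 417 to 430 in clone 2. Trophoblast markers were at 812 to 837, 867 to 920 and 661 to 730 CPM. Fibroblast markers were at 116 to 119, 112 to 114 and 87.1 to 105 CPM. Primitive endoderm and mesoderm sums overlapped chr8A in clone 1 and were lower in clone 2, and ESC sums overlapped in both. The part of such cells in the members' differences was not tested.

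Foxd3, at 10.2 to 12.8 CPM in SL chr8A, was at 13.4 to 16.6 in clone 1 (log2 0.30 ± 0.09, SE, n = 3 and 3, edgeR adjusted p = 0.00751) and at 17.2 to 17.9 in clone 2 (0.57 ± 0.08, edgeR adjusted p = 3.73e-09). Every clone library exceeded every chr8A library. For clone 1 the call was lost without SL chr8A replicate 1 (0.21) or SL clone 1 replicate 3 (0.20). Lin28b was at 76.2 to 80.5 CPM in chr8A, 90.1 to 96.3 in clone 1 (0.25 ± 0.04, edgeR adjusted p = 2.27e-06) and 94.2 to 95.7 in clone 2 (0.29 ± 0.04, edgeR adjusted p = 9.93e-09), again with no overlap. Its paralog Lin28a did not pass the test in either clone, with log2 differences of 0.04 ± 0.03 and 0.06 ± 0.03.

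Pou5f1 was higher in both clones, by 0.13 ± 0.03 in clone 1 and 0.23 ± 0.03 in clone 2, and its libraries did not overlap those of chr8A. Sox2 went the other way in clone 1, at 410, 414 and 432 CPM against 449 to 485 in chr8A (log2 -0.16 ± 0.03, SE, n = 3 and 3, edgeR adjusted p = 6.37e-06). In clone 2 it was at 440, 456 and 447 CPM, overlapping chr8A, with a difference of -0.07 ± 0.03 (edgeR adjusted p = 0.0716), which passed without SL chr8A replicate 3 (-0.11) or SL clone 2 replicate 2 (-0.09), with library totals only (-0.08), with a filter of 1 CPM in 3 libraries (-0.08) and in a fit of only these groups (-0.07). Utf1 was higher by 0.09 ± 0.03 and 0.11 ± 0.03, and the clone 1 call was lost without SL chr8A replicate 3 (0.08) or SL clone 1 replicate 1 (0.07), with library totals only (0.08) and after thinning (0.07). Tcf7l1, at 131 to 143 CPM in chr8A, was at 117 to 130 in clone 1 and 115 to 130 in clone 2 (log2 -0.12 ± 0.04 and -0.13 ± 0.04). Leaving out SL chr8A replicate 2 ended the Tcf7l1 call in clone 1 (-0.08) and in clone 2 (-0.10), as did leaving out SL clone 1 replicate 2 (-0.08), SL clone 1 replicate 3 (-0.14), SL chr8A replicate 1 (clone 1, -0.13) or SL clone 2 replicate 1 (-0.09), and in clone 1 DESeq2 (-0.11) and thinning (-0.12) ended it too. Zfp281 passed in clone 2 (0.12 ± 0.03) and not in clone 1 (0.07 ± 0.03). Sall4 likewise passed in clone 2 (0.09 ± 0.03) and not in clone 1 (0.05 ± 0.03), and its clone 2 call was lost without SL chr8A replicate 1 (0.08) or SL clone 2 replicate 3 (0.08). Tcf3 did not pass in either, at -0.01 ± 0.03 and 0.01 ± 0.03.

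In SL2i the clones stood above chr8A in Utf1, Sall4 and Zfp281 and below it in Tcf3. Clone 1 had 4 members higher and 1 lower, against 10.4% and 12.1% of all genes (22.4% in all), and clone 2 had 3 higher and 1 lower, against 9.74% and 10.8% (20.6% in all). With library totals only, more genes were higher than lower, 2054 and 1777 in clone 1 and 1819 and 1704 in clone 2, where the main analysis had 1780 and 2073, and 1673 and 1858. Here 7 and 6 members did not overlap with chr8A, against 56.7% and 55.2% of all genes. Some marker sums of other cell types were higher in both clones. Trophoblast markers summed to 78.0 to 86.9 CPM in chr8A, 141 to 145 in clone 1 and 139 in both clone 2 libraries. Neural progenitor markers summed to 83.2 to 89.7, 96.9 to 103 and 97.3 to 98.7 CPM in the same order. Mesoderm markers summed to 13.1 to 17.6, 20.8 to 23.0 and 19.2 to 20.3 CPM. Other sums did not rise in both clones. Fibroblast markers summed to 11.85 to 11.89 CPM in chr8A, 10.24 to 11.02 in clone 1 and 11.29 to 12.2 in clone 2. Primitive endoderm markers overlapped, at 690 to 698, 686 to 702 and 643 to 700 CPM. ESC markers summed to 6945 to 7326 CPM in chr8A, 6365 to 6582 in clone 1 and 6676 to 6685 in clone 2, and the part of these cells in the members' differences was not tested. Utf1, at 79.0 and 92.2 CPM in chr8A, was at 153 and 161 in clone 1 and at 151 and 143 in clone 2. These are log2 differences of 0.88 ± 0.05 (SE, n = 2 and 2, edgeR adjusted p = 1.06e-28) and 0.78 ± 0.05 (edgeR adjusted p = 3.05e-25). Sall4, at 296 and 314 CPM in chr8A, was at 391 and 398 in clone 1 (0.37 ± 0.04, edgeR adjusted p = 6.53e-15) and at 363 and 370 in clone 2 (0.27 ± 0.04, edgeR adjusted p = 4.05e-09). All clone libraries exceeded both chr8A libraries for these genes.

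Zfp281 was at 146 and 156 CPM in SL2i chr8A, 174 and 180 in clone 1 (log2 0.23 ± 0.04) and 175 and 183 in clone 2 (0.25 ± 0.04). Tcf3 was at 166 and 179 CPM in SL2i chr8A, 147 and 149 in clone 1 (-0.22 ± 0.05) and 147 and 135 in clone 2 (-0.29 ± 0.05), and the groups did not overlap. Foxd3 passed in clone 1 (0.38 ± 0.09, edgeR adjusted p = 0.000344) and not in clone 2 (0.23 ± 0.09, edgeR adjusted p = 0.0554), where it passed without SL2i chr8A replicate 2 (0.30), with library totals only (0.24), in a fit of only these groups (0.23) and after thinning (0.26). Pou5f1 and Sox2, which differed between clone 1 and chr8A in SL, were within 0.07 of chr8A in SL2i in both clones and did not pass. Lin28a differed by 0.10 ± 0.05 and 0.03 ± 0.05, the first passing without SL2i chr8A replicate 2 (0.15) and with library totals only (0.12). Lin28b, with its few reads, differed by -0.09 ± 0.16 and -0.15 ± 0.16, and Tcf7l1 by -0.00 ± 0.06 and -0.08 ± 0.06, none of which passed.

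**Figure D4:**
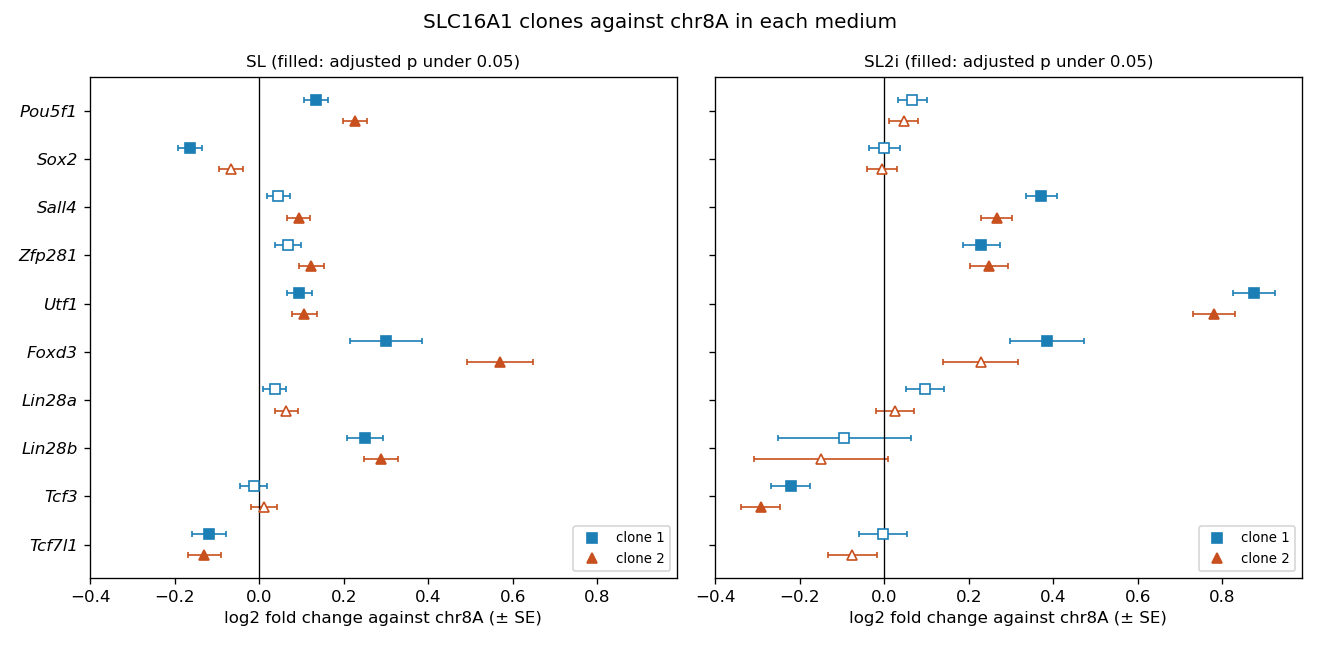
Log2 fold change of SLC16A1 clone 1 (squares) and clone 2 (triangles) against chr8A (horizontal axes) for each member (vertical axis), in SL (left) and SL2i (right); bars are the SE, filled marks have an adjusted p under 0.05. In SL2i Utf1 stands at 0.88 and 0.78 and Tcf3 at -0.22 and -0.29, while Lin28b has wide bars.

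Whether the response to the medium differed from that of chr8A was tested directly, as the difference of the log2 changes. It passed for 5 members in clone 1, against 17% of all genes, and for 5 in clone 2, against 16.9%. Utf1 fell less in the clones, by 0.78 ± 0.06 in clone 1 (edgeR adjusted p = 5.47e-21) and 0.67 ± 0.06 in clone 2 (edgeR adjusted p = 2.49e-17). Sall4 rose more, by 0.33 ± 0.05 and 0.17 ± 0.05, and Tcf3 responded with -0.21 ± 0.06 and -0.30 ± 0.06 relative to chr8A. In clone 1 the remaining calls were Sox2 (0.16 ± 0.05) and Zfp281 (0.16 ± 0.05), and in clone 2 Pou5f1 (-0.18 ± 0.04) and Foxd3 (-0.34 ± 0.12). Lin28a differed by 0.06 ± 0.05 and -0.04 ± 0.05 and Lin28b by -0.34 ± 0.16 and -0.44 ± 0.16 (edgeR adjusted p = 0.0502 in clone 2), short of the threshold. Without SL2i chr8A replicate 1, the Lin28b difference passed in both clones (-0.59 and -0.68), and without SL chr8A replicate 1 it passed in clone 2 (-0.46). The 2 comparisons share the chr8A libraries of both media.

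Several of these differences depended on single libraries or on other settings. Leaving out SL2i chr8A replicate 1 ended the calls of Sox2 (0.14) and Zfp281 (0.12) in clone 1 and of Sall4 in clone 2 (0.14), and SL2i clone 1 replicate 2 those of Sox2 (0.15) and Zfp281 (0.15). The Tcf3 call in clone 1 was lost without SL2i chr8A replicate 2 (-0.14), and without that library Zfp281 passed in clone 2 (0.19). The Foxd3 difference in clone 2 was lost without SL chr8A replicate 1 (-0.24), SL2i chr8A replicate 2 (-0.26), SL clone 2 replicate 2 (-0.31) or 3 (-0.34), or either SL2i clone 2 library (-0.37 and -0.30), and also with DESeq2 (-0.34), library totals only (-0.31) and thinning to equal depth (-0.31). The Zfp281 difference in clone 1 was lost without the filter on low counts (0.16), and that in clone 2 passed with library totals only (0.16). For Utf1 in both clones, Sall4 in clone 1, and Pou5f1 and Tcf3 in clone 2 the call held in every setting tried.

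The clones were also compared with each other. In SL2i no member passed between clone 2 and clone 1 (edgeR's quasi-likelihood test), where 0.157% of all genes did and 1414 had an unadjusted p under 0.05. In SL Pou5f1 (0.09 ± 0.03), Sox2 (0.10 ± 0.03) and Foxd3 (0.27 ± 0.08) were higher in clone 2, against 1.69% of all genes higher and 4.4% called in all, with edgeR adjusted p-values of 0.0341, 0.0315 and 0.0303 (n = 3 and 3). Leaving out any single library of the pair left 0 to 2 of these calls, and RLE, DESeq2 or no filter on low counts left 1 and thinning left 0.

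The list counts in the clones stand against 8.83% of all genes higher and 7.77% lower in SL clone 1, 14.3% and 12.6% in SL clone 2, 10.4% and 12.1% in SL2i clone 1, and 9.74% and 10.8% in SL2i clone 2. The OCT4 and SOX2 targets gave 4 higher and 10 lower of 18 in SL clone 1 (median -0.13) and 6 higher and 8 lower in SL clone 2 (median -0.04). Klf2, a Kruppel-like factor of naive pluripotency, was lower in both (-0.56 ± 0.04 and -0.48 ± 0.04). In SL2i the same targets gave 8 higher and 8 lower in clone 1 and 8 higher and 7 lower in clone 2. There Fgf4, the growth factor gene driven by OCT4 and SOX2, was at -0.54 ± 0.04 and -0.51 ± 0.04, and Jarid2, a Polycomb cofactor, at 0.50 ± 0.04 and 0.51 ± 0.04. For the let-7 targets 9 of 20 were higher and 2 lower in SL clone 1, and 9 higher and 3 lower in SL clone 2 (medians 0.06 and 0.05). Hmga2 was higher in both clones in SL (0.59 ± 0.05 and 0.41 ± 0.05) and in SL2i (0.33 ± 0.05 and 0.28 ± 0.05), and Myc was higher in SL2i (1.51 ± 0.12 and 1.14 ± 0.13). In the TCF-LEF list Lef1, a Wnt target as well as an effector, was higher in SL by 1.49 ± 0.08 and 1.70 ± 0.08 and in SL2i by 0.79 ± 0.18 and 0.85 ± 0.18 (14.7% of its 30-base words occur in other genes). Among the E protein partners, Id3 was higher in SL2i by 2.25 ± 0.13 and 2.03 ± 0.13. The single genes named here were picked by their small adjusted p and do not stand for their lists.

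Between LbNOX and vector cells no difference was detectable in any of the 10 members. None passed (edgeR, adjusted over 16119 genes), where 0.0372% of all genes did, 6 in number, and 605 genes had an unadjusted p under 0.05. The groups overlapped for all 10 members, while 9.64% of all genes did not overlap. DESeq2 called 14 genes and none of the members. The members' log2 differences lay between -0.04 and 0.03, with standard errors of 0.04 to 0.10. Pou5f1 was at 1518, 1381 and 1454 CPM in vector cells and 1477, 1532 and 1344 in LbNOX cells. Lin28a was at 612, 535 and 620 against 615, 599 and 549 CPM. Sox2 was at 548, 566 and 523 CPM against 555, 527 and 536, and Utf1 at 363, 355 and 343 against 369, 370 and 317. Foxd3, at 34.8, 32 and 32.6 CPM in vector and 37.4, 35.9 and 28.2 in LbNOX cells, had the widest error (0.03 ± 0.10). LbNOX replicate 3 gave the lowest values of Pou5f1, Lin28a, Utf1 and Foxd3 among the LbNOX libraries. No member passed in any setting tried, leaving out single libraries included, and over those settings the differences ranged from -0.07 to 0.14.

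**Figure D5:**
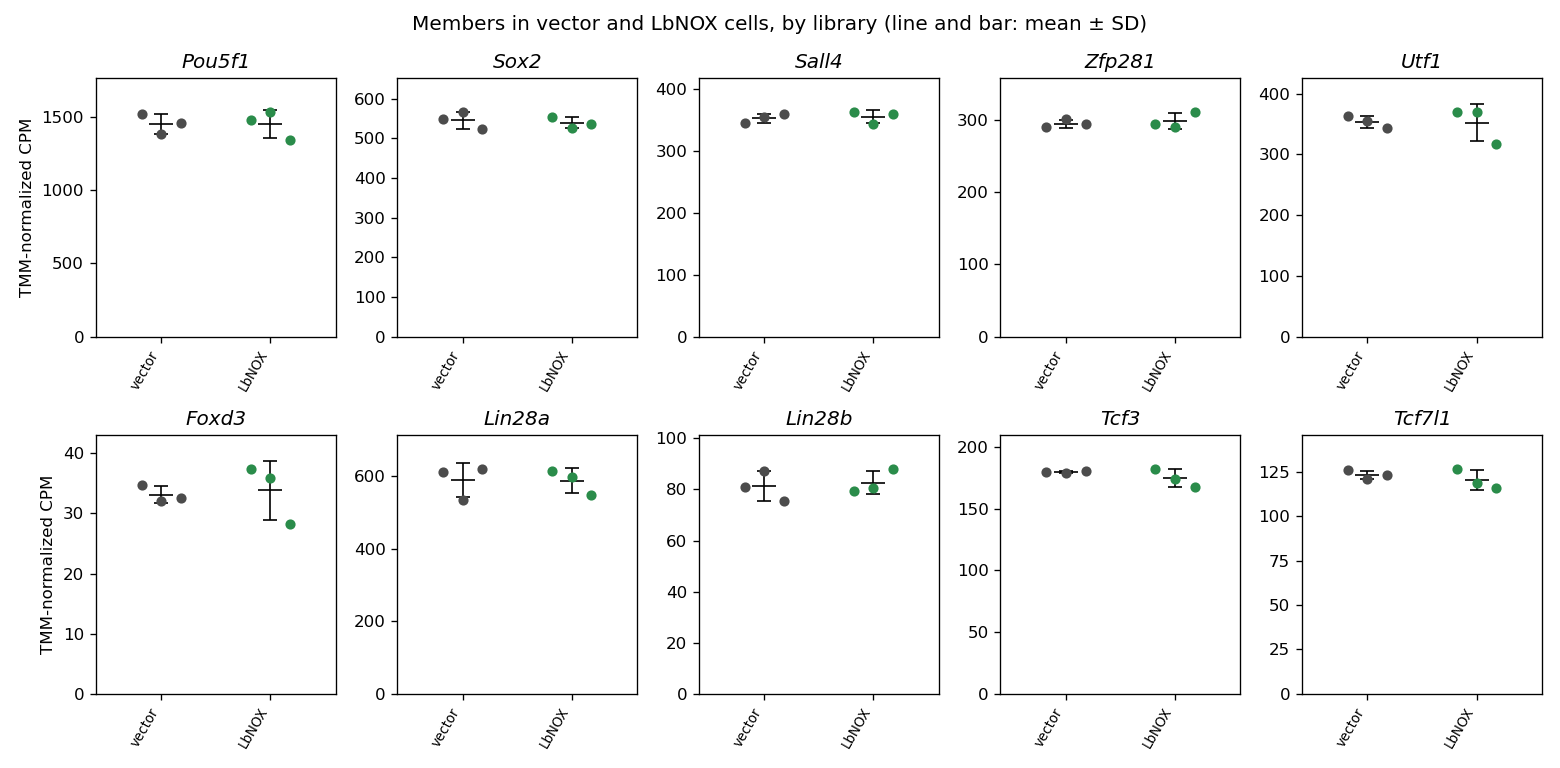
TMM-normalized CPM (vertical axes, linear from 0) of each member in the 3 vector and 3 LbNOX libraries, all in SL; points are libraries, the line and bar are the mean and SD. The groups overlap in every panel, and the widest relative spread is that of Foxd3 in LbNOX cells and of Lin28a in vector cells.

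The vector cells and the chr8A cells were both in SL but lie in tables normalized separately, so their levels are set side by side without a test. Foxd3 was at 33.1 ± 1.5 CPM in vector cells and 11.8 ± 1.4 in chr8A cells (SD, n = 3 each). Pou5f1 was at 1451 ± 68 and 1009 ± 36, Zfp281 at 294 ± 5.6 and 198 ± 2.6, and Sall4 at 352 ± 7.5 and 286 ± 4.1 CPM. Lin28a was at 589 ± 47 and 664 ± 16 CPM and Lin28b at 81.3 ± 5.9 and 77.7 ± 2.4.

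Over the 15 libraries of the clone table, the genes whose log2 CPM followed Pou5f1 most closely among 9674 genes were Prpf31, a splicing factor, Gdf3, a TGF-beta family ligand, and Ppib, a prolyl isomerase of the secretory pathway, with Pearson r of 0.98 each. For Sox2 they included Nfe2l2, the antioxidant response factor, and Gjb5, a connexin, also at 0.98. The libraries fall into 2 media and share their lines, so these values describe mainly the split between media and carry no test. Gdf3 rose by 0.48 ± 0.04 between the media in chr8A and Gjb5 by 1.70 ± 0.10, against 0.38 and 0.31 for Pou5f1 and Sox2.

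Reads of some members cannot be told apart from those of other genes. Whether the counting used strand is not stated in the labels or notes, and transcripts of opposite-strand genes overlap exons of Pou5f1, Sall4, Lin28a and Tcf7l1, while a microRNA gene overlaps Foxd3 on its own strand. Of the 30-base words in the members' transcripts, 14.7% of those of Pou5f1, 8.43% of Sall4, 5.75% of Foxd3 and 5.2% of Lin28a also occur in other genes, and under 2.5% for the rest. Words were compared on both strands. For Sall4 and Lin28a the only other gene was the overlapping one on the opposite strand, so their shares describe that same overlap.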

How the data were processed

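Polyadenylated RNA of mouse ESCs was sequenced (21 libraries, 8 groups of 2 or 3). Per the labels' protocols the library kit was strand-specific. The deposited values are raw read counts per gene, with a gene length beside them, in 2 tables; the submitters' processing notes name DRAGEN 3.10, featureCounts of the Subread package and the build GRCm39, with no parameters. Each table was normalized and fitted separately with edgeR 4.0.16 (R 4.3.3): genes with too few reads were dropped by edgeR's default filter, libraries were scaled by TMM, and quasi-likelihood tests over all groups of a table gave p-values adjusted by Benjamini-Hochberg over all genes tested, 16119 (4 residual degrees of freedom) and 17178 (9). All 10 members passed the filter in both tables. The 12 comparisons were LbNOX against vector, the medium in each line, the clones against chr8A and each other in each medium, and the differences of the medium effect. TPM was computed from the counts and deposited lengths. Pairwise chi-square over its degrees of freedom between libraries of a group ranged from 1.87 to 13.95, so no library was a copy of another.

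The members and lists were chosen with earlier results of these data known. The genes named are the members, Slc16a1, up to 4 genes of each list with the smallest adjusted p, and the 3 genes most like Pou5f1 and Sox2, of which 1 is not reported here. Gene identifiers of 96.5% of rows matched the reference names, and sequences came from RefSeq (GRCm38.p6) and GENCODE vM21. The scripts were tested on simulated counts. Alternatives were other scalings and filters, DESeq2 1.42.0, a replicate block, a fit of only the groups compared, thinning to equal depth and leaving out each library. Scaling by library totals only and leaving out the 2 libraries of the LbNOX table that lie apart (vector replicate 2 and LbNOX replicate 3) were added after seeing the data.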

Additional observations from a re-analysis of the deposited data

Results flagged for a closer look

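The response to the medium differed between a clone and chr8A, by the test of the difference of log2 changes (edgeR quasi-likelihood, adjusted over 17178 genes by Benjamini-Hochberg), for these members. In clone 1 they were Utf1 (0.78 ± 0.06, SE, adjusted p = 5.47e-21), Sall4 (0.33 ± 0.05, adjusted p = 1.61e-08), Sox2 (0.16 ± 0.05, adjusted p = 0.00696), Zfp281 (0.16 ± 0.05, adjusted p = 0.0259) and Tcf3 (-0.21 ± 0.06, adjusted p = 0.00418). In clone 2 they were Utf1 (0.67 ± 0.06, adjusted p = 2.49e-17), Sall4 (0.17 ± 0.05, adjusted p = 0.00334), Pou5f1 (-0.18 ± 0.04, adjusted p = 0.00123), Foxd3 (-0.34 ± 0.12, adjusted p = 0.0327) and Tcf3 (-0.30 ± 0.06, adjusted p = 1.3e-05). Positive values mean a smaller fall or a larger rise in the clone than in chr8A on going from SL to SL2i. Of all genes 17% passed in clone 1 and 16.9% in clone 2. In the main analysis only the Utf1, Sall4 and Tcf3 differences passed in both clones, which share the chr8A libraries. Zfp281 had a like value in clone 2 (0.12 ± 0.05, edgeR adjusted p = 0.1) without passing. The calls of Utf1 in both clones, Sall4 in clone 1, and Pou5f1 and Tcf3 in clone 2 held in every setting tried. The others were lost in at least 1 setting, that of Foxd3 in clone 2 in 9 of 18.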

How the results depend on the processing

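Of 70 log2 changes of members called in at least 1 setting, 47 kept their direction and their side of the threshold in every setting run; over all such settings 889 values stayed so, 69 lost a call, 20 gained one and 4 changed sign. The changes of sign were Sall4 in the medium comparison of chr8A (-0.014 with library totals only, against 0.094) and Tcf7l1 in the same comparison (0.0037 with the replicate block, 0.019 without SL chr8A replicate 2, 0.055 without SL2i chr8A replicate 1, against -0.0044). Library totals as the only scaling moved the median of all genes in that comparison to -0.107. That scaling also turned the split of higher and lower genes from 1516 and 1334 to 1198 and 1591 in clone 1 against chr8A in SL, from 2452 and 2166 to 1974 and 2449 in clone 2 against chr8A in SL, from 1780 and 2073 to 2054 and 1777 in clone 1 and from 1673 and 1858 to 1819 and 1704 in clone 2 against chr8A in SL2i, from 1337 and 1588 to 1690 and 1153 in the medium difference of clone 1, from 1321 and 1577 to 1562 and 1198 in that of clone 2, and from 15 and 12 to 8 and 13 in clone 2 against clone 1 in SL2i. In the last, size factors of relative log expression (RLE) gave 9 and 12, and in clone 2 against clone 1 in SL they gave 201 and 535, against 291 and 465. Single libraries turned some splits too. Without SL chr8A replicate 3 they were 1005 and 1108 in clone 1 and 1735 and 1958 in clone 2 against chr8A in SL. Without SL2i chr8A replicate 2 they were 1198 and 1141 in the medium difference of clone 1 and 1182 and 1126 in that of clone 2. The cause was not tested for any of these.

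Genes called between LbNOX and vector numbered 6, against 24 with no filter on low counts, 3 with the replicate block, 14 by DESeq2, 49 with both libraries that lie apart left out, and 0 (without vector replicate 3) to 13 (without LbNOX replicate 3) with 1 library left out; no member was called in any of them. In SL, DESeq2 called 1793 genes and thinning 1838 for clone 1 (2850 in the main analysis), and 2865 and 2912 for clone 2 (4618); thinning removes reads, and the cause was not tested for DESeq2. For clone 2 against clone 1 in SL, 756 genes became 383 with DESeq2, 1223 with only the groups compared, 433 after thinning and 371 to 603 with 1 library left out, and the 3 members became 1 with RLE, without the filter and with DESeq2, 0 after thinning and 0 to 2 with 1 library left out. For clone 2 against clone 1 in SL2i, 27 genes became 11 with only the groups compared and 16 to 40 with 1 library left out. The medium difference of clone 1 kept 3 to 5 of its 5 members. The same replicate number did not mark libraries that deviate together (correlations of -0.159 to 0.127), so the replicate block is a sensitivity fit only. With the block, Foxd3 in clone 2 against chr8A in SL2i (0.23, adjusted p = 0.0456), Lin28a in clone 2 against chr8A in SL (0.06, adjusted p = 0.0476) and the Lin28b medium difference of clone 2 (-0.44, adjusted p = 0.0452) passed, and no call on a member was lost. Each library of clone 2 correlated best with its own number in chr8A in SL, a hint from the data and not the design.

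The SL2i groups of 2 libraries and the 73 to 109 reads of Lin28b limit what can be detected there.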
